A study of Mus musculus with 2 samples.

Results

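The Mir34 family consists of Mir34a, Mir34b and Mir34c, the microRNA genes best known as direct targets of the tumour suppressor p53. The 3 genes were taken by their Ensembl identifiers in the annotation of release M21 (build mm10), and all 3 had a row among the 2202 microRNA genes measured. The tissue was heart from adult females, 8 to 10 months old, whose strain is labelled 5xFAD/CAST, and its small RNA was sequenced. In 5xFAD mice a neuronal promoter drives human transgenes with mutations of familial Alzheimer disease, while CAST mice are an inbred line of wild-derived origin. The libraries, biological replicates 1 and 2, formed 1 group with no control, and their labels give different biosamples but the same donor identifier. P-values therefore measure only how far these libraries differed beyond counting error, and that spread may be technical. The tables hold microRNA genes only, so p53 itself and the messenger RNA targets of the family were not measured.

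MicroRNAs are cut from hairpin precursors and bind messenger RNAs mainly through their seed, bases 2 to 8 of the mature strand. Activated p53 raises transcription of both Mir34 loci, and the miR-34 microRNAs repress genes of the cell cycle and of cell survival, among them Cdk6, Met, Bcl2 and Sirt1. In the heart, miR-34a is known to increase with age and after infarction and to repress Ppp1r10 (PNUTS), a protein that limits telomere damage and cell death. Mir34b and Mir34c are known mainly from testis, brain and multiciliated epithelium, where they act together with the Mir449 genes, which carry the same seed.

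The sequences show what the family shares and where its members can be told apart. The counted unit was the precursor, and the 3 precursors are given from RefSeq (GRCm38.p6), 5′ to 3′, with the seed run GGCAGUG in capitals.
Mir34a precursor: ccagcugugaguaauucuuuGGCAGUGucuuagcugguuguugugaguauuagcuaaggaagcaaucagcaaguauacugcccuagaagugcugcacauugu
Mir34b precursor: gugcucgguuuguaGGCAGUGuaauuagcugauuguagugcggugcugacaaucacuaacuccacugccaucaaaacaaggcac
Mir34c precursor: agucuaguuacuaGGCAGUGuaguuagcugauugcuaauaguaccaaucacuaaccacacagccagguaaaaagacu

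The letters GGCAGUG, searched on the precursor's own strand, occurred in 17 of the 1005 precursors of that table (1.69%). As the seed of a mature sequence they occurred in 4 of the 1738 of that table, given with the seed in capitals to set the family beside its seed relatives. The table is not complete, and the 4 do not include miR-34c-5p, although the Mir34c precursor above holds the run.
miR-34a-5p: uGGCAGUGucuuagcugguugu
miR-34b-5p: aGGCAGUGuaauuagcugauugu
miR-449a-5p: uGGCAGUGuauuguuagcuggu
miR-449c-5p: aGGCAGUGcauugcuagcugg

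Compared position by position from the 5′ end without gaps, miR-34a-5p matched miR-449a-5p at 15 of 22 positions and miR-34b-5p at 11 of 22. The run uuagcug, held by each of them, starts further along in miR-34b-5p and miR-449a-5p than in miR-34a-5p. Counts without gaps therefore do not rank how alike these sequences are. The strands from the other side of the hairpin had different seeds at the 2 loci, and those of Mir34b and Mir34c shared one, again in capitals.
miR-34a-3p: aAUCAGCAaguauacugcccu
miR-34b-3p: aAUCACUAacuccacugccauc
miR-34c-3p: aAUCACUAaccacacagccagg

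The 3p strands of Mir34b and Mir34c were identical at 17 of 22 positions. The longest run that a family precursor shared with any other annotated microRNA precursor was 12 bases for Mir34a, and 11 bases each for Mir34b and Mir34c. No member thus shared a run of 18 bases, the length used here to mark genes whose reads can fit several loci. Such reads were assigned to no gene. Other loci of the genome were not searched.

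Mir34a (ENSMUSG00000065493.1) lay on chromosome 4, 150068454 to 150068555, plus strand, in no annotated host gene, 18809 bases from the nearest protein-coding gene, Gpr157. Mir34b (ENSMUSG00000065492.1) lay on chromosome 9, 51103562 to 51103645, and Mir34c (ENSMUSG00000065587.1) at 51103034 to 51103110, both on the minus strand. They were 451 bases apart, the arrangement of a cluster made from 1 primary transcript. Both lay inside the gene Btg4, which runs on the opposite strand, and overlapped none of its annotated exons. On the strand opposite to each gene, the only read found at the 3 genes was 1 at Mir34b in replicate 1.

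The heart expressed the family almost entirely as Mir34a. Mir34a had 25182 counts in replicate 1 and 10591 in replicate 2, which were 6015 and 3681 counts per 1000000 reads assigned to microRNA genes (CPM). Its mean was 4848 ± 1651 CPM (SD, n = 2), and it ranked 24th of all genes in replicate 1 and 32nd in replicate 2. Reads that fit several loci (42.4% and 43.2% of all reads) were assigned to no gene. Genes with near-identical copies therefore lose reads, and ranks and CPM compare genes by uniquely assigned reads only. Mir34c had 118 and 222 counts, or 28.2 and 77.2 CPM, a mean of 52.7 ± 34.6 CPM (SD, n = 2). Mir34b had 7 and 4 counts, or 1.67 and 1.39 CPM, a mean of 1.53 ± 0.199 CPM (SD, n = 2). The order was the same in both libraries, with Mir34a far above Mir34c and Mir34c above Mir34b, and the exact Clopper-Pearson 95% counting intervals of the 3 genes did not overlap within either library. These intervals ran from 5941 to 6089 and from 3611 to 3751 CPM for Mir34a, from 23.3 to 33.8 and from 67.3 to 88.0 CPM for Mir34c, and from 0.672 to 3.44 and from 0.379 to 3.56 CPM for Mir34b. For Mir34b the intervals of the libraries overlapped almost completely. Its counts stood just above 3 counts, the approximate 1-sided 95% upper limit for a count of 0. That limit corresponds to 0.717 CPM in replicate 1 and 1.04 CPM in replicate 2, and the lower ends of the Mir34b intervals fell below it. Small RNA reads span the mature microRNA whole, so levels were not divided by gene length. Differences between genes also hold how well each sequence is captured in the library, which was not tested.

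**Figure D1:**
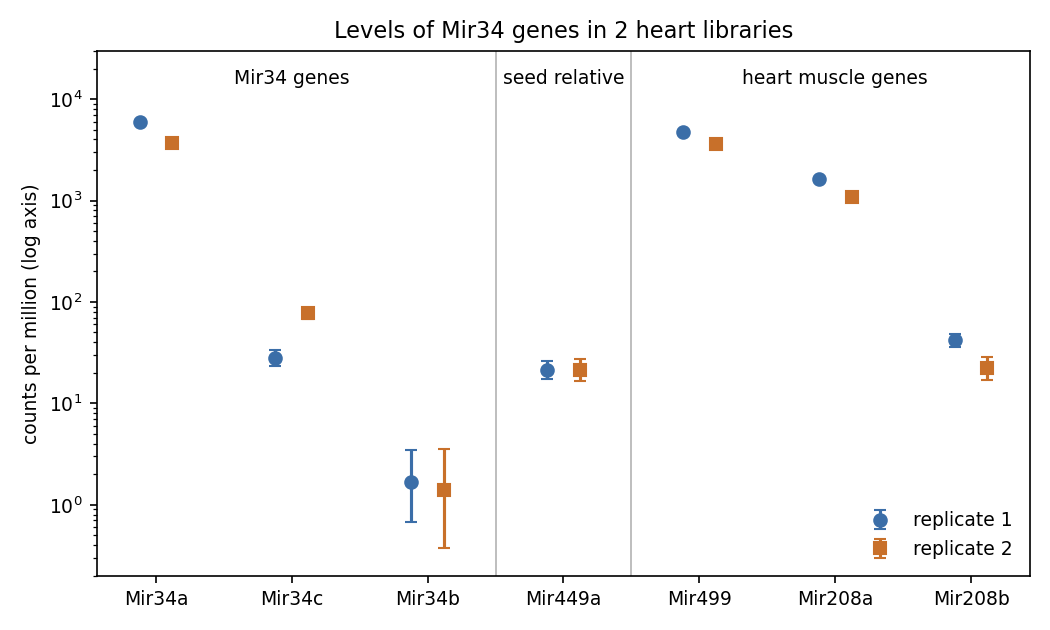
Levels in CPM (log axis) of the 3 Mir34 genes, the seed relative Mir449a and 3 heart muscle genes in replicate 1 (circles) and replicate 2 (squares), with exact 95% counting intervals. Mir34a stood at 6015 and 3681 CPM, beside Mir499, while Mir34c stood at 28.2 and 77.2 CPM and Mir34b below 2 CPM in both libraries.

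Of the assigned reads, 0.604% in replicate 1 (exact 95% interval 0.597 to 0.612) belonged to the family, against 0.376% in replicate 2 (0.369 to 0.383). The mean share was 0.490% ± 0.162 (SD, n = 2). Mir34a supplied 99.5% of the family's counts in replicate 1 (exact 95% interval 99.4 to 99.6), against 97.9% in replicate 2 (97.6 to 98.2). Mir34c supplied 0.466% (0.386 to 0.558) and 2.05% (1.79 to 2.34), and Mir34b 0.0277% (0.0111 to 0.0570) and 0.0370% (0.0101 to 0.0947). These shares do not depend on how the libraries are scaled. The intervals of Mir34a and of Mir34c did not overlap between the libraries, so the makeup of the family differed beyond counting error, whereas those of Mir34b overlapped.

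Within the cluster on chromosome 9, Mir34c was much the more abundant gene. There were 16.9 counts of Mir34c for each of Mir34b in replicate 1 (exact 95% interval 7.93 to 42.8), against 55.5 in replicate 2 (21.4 to 205). The intervals overlapped, and with 7 and 4 counts of Mir34b a change of this ratio was not detectable at this depth. Counts were per gene, so the 5p and 3p strands of a precursor were not separated.

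The seed relatives of the family were low in the heart. The Mir449 genes lie on chromosome 13 in an intron of Cdc20b, a gene known from multiciliated cells. Mir449a had 90 counts in replicate 1 and 62 in replicate 2, or 21.5 CPM in each, while Mir449b and Mir449c had 0 counts in both. For a count of 0 the exact 95% interval reaches 0.881 CPM in replicate 1 and 1.28 CPM in replicate 2. Mir449a thus stood above Mir34b and near Mir34c. For each count of Mir449a there were 1.31 counts of Mir34c in replicate 1 (exact 95% interval 0.988 to 1.74), where the 2 genes did not differ beyond counting error, and 3.58 in replicate 2 (2.69 to 4.83). Of the counts of all 6 genes of this seed group, Mir34a held 99.2% in replicate 1 and 97.4% in replicate 2.

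The labelled tissue was checked against 3 muscle genes hosted by myosin genes, and the level of Mir34a was close to that of the most abundant of them, Mir499. Mir499, hosted by the myosin gene Myh7b, had 4787 and 3618 CPM, Mir208a, hosted by Myh6, had 1638 and 1074 CPM, and Mir208b, hosted by Myh7, had 41.8 and 22.2 CPM. There were 1.26 counts of Mir34a for each of Mir499 in replicate 1 (exact 95% interval 1.23 to 1.28), against 1.02 in replicate 2 (0.990 to 1.05), so Mir34a was higher in replicate 1 and did not differ from Mir499 beyond counting error in replicate 2. For each count of Mir208a there were 3.67 of Mir34a in replicate 1 (3.58 to 3.77) and 3.43 in replicate 2 (3.29 to 3.57). The other muscle microRNAs, Mir1a and Mir133a, are each encoded by several loci, so their counts hold only unique reads and were not used for this check. All 3 muscle genes are specific to muscle cells, whereas Mir34a is made in many cell types, and the tissue libraries do not show which cells held it.

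The 3 genes nearest to Mir34a in level, by Euclidean distance of log2(CPM + 0.5) over the 2 libraries, were Mir27b (distance 0.323), Mir499 (0.330) and Mirlet7f-2 (0.404). Mir27b had 6152 and 4599 CPM and Mirlet7f-2 5155 and 4651 CPM. Nearest to Mir34c were Mir1198 (distance 0.440), Mir122 (0.694) and Mir18 (0.706). Mir122, known as the liver microRNA, had 19.1 and 57.3 CPM, Mir1198 had 30.6 and 57.3 CPM, and Mir18, of the Mir17-92 cluster, had 31.3 and 47.6 CPM. With 2 libraries such likeness describes level and little else. By mean CPM, the direct neighbours of Mir34a were Mirlet7f-2 (4903 ± 356 CPM) and Mir195a (4653 ± 5440 CPM; SD, n = 2), neither of which was apart from it by more than its own spread of 1651 CPM. The same held for Mir34c, at rank 164, and its neighbours Mir215 (53.2 ± 66.9 CPM) and Mir301 (50.7 ± 59.4 CPM; SD, n = 2).

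Between the libraries the 2 loci differed in opposite directions. Each gene that passed a filter on low counts was tested with an exact two-sided binomial test of its 2 counts given TMM-scaled totals (TMM is edgeR's scaling for library makeup), with Benjamini-Hochberg adjustment over all 309 genes tested. Ratios are replicate 2 over replicate 1 on the log2 scale. Mir34a was 1.56-fold lower in replicate 2 (log2 ratio -0.64, exact 95% interval -0.67 to -0.60), with an adjusted p too small for the software to represent. Mir34c was 2.88-fold higher (log2 ratio 1.52, exact 95% interval 1.20 to 1.86, adjusted p = 4.81e-21). Mir34b was below the filter, and its log2 ratio of -0.19 had an exact 95% interval from -2.41 to 1.78. That interval overlaps those of both other genes, so whether Mir34b differed as its cluster partner did cannot be seen at this depth. Mir449a had a log2 ratio of 0.07 (exact 95% interval -0.42 to 0.56) and did not pass the test (adjusted p = 0.878).

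A call of this kind was common. Of the 309 genes tested, 63.4% passed. Those higher in replicate 2 made up 35.3% of the tested genes and those lower 28.2%. A pass by both tested members can therefore not be told apart from that background. The median gene differed 1.43-fold. For Mir34a, 125 of the 309 genes had a larger absolute log2 ratio, which places it in the middle of the range. For Mir34c 28 genes did, and 8 genes were higher in log2 ratio. Among the 72 other tested genes within 2-fold of its mean CPM, 9 had a larger absolute log2 ratio, 23 were higher and 21 lower by the test. These places hold for tested genes only, because the filter left out genes with few counts in either library. Mir302a (10 and 482 counts, mean 84.9 CPM) and Mir302b (6 and 394 counts, mean 69.2 CPM) were left out this way. Both lie within 2-fold of Mir34c in mean CPM, with log2 ratios of 6.20 and 6.65. Mir129-2 (57 and 7 counts), left out in the other direction, lies outside that range. Within 2-fold of Mir34a there were 21 genes, all of which passed, 14 higher and 7 lower. Their median log2 ratio was 0.26, and 8 had a larger absolute log2 ratio than Mir34a. With DESeq2 size factors the median log2 ratio of the tested genes moved from 0.01 to -0.14, and the higher genes made up 44.6% of the calls instead of 55.6%. Under that scaling the log2 ratios were -0.79 for Mir34a and 1.38 for Mir34c, on the same sides of that median as before.

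**Figure D2:**
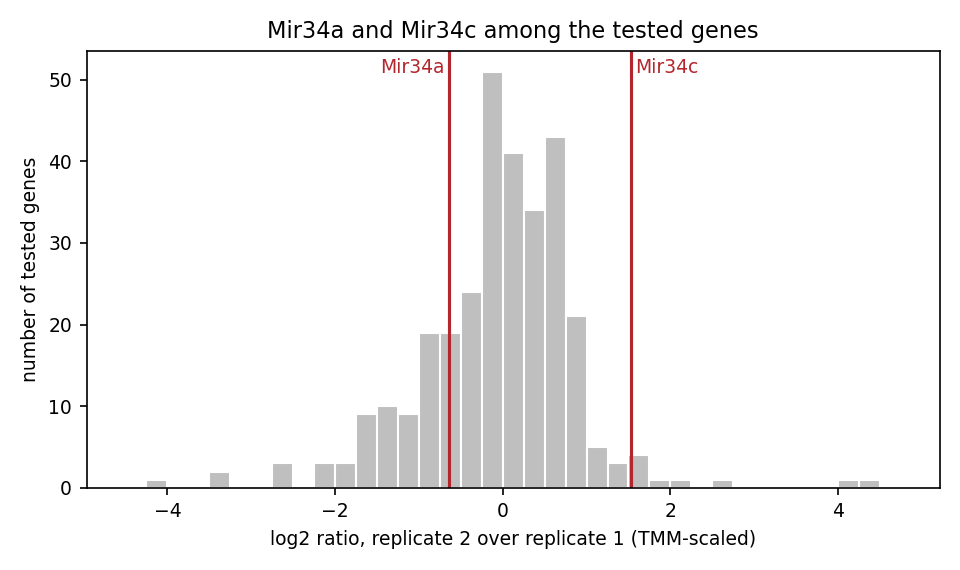
Number of tested genes (y axis) by log2 ratio of replicate 2 over replicate 1 (x axis, TMM-scaled), with vertical lines at Mir34a and Mir34c. Mir34a, at -0.64, lies within the bulk of the 309 genes, and Mir34c, at 1.52, lies in the upper tail with 8 tested genes above it. Genes below the filter are not shown.

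Markers of several cell types differed between the libraries, as did 63.4% of all 309 genes tested (35.3% higher and 28.2% lower in replicate 2). The 3 myosin-hosted heart muscle genes were all lower in replicate 2, as Mir34a was, with log2 ratios of -0.33 for Mir499, -0.54 for Mir208a and -0.84 for Mir208b, and their summed level was 6466 CPM in replicate 1 and 4715 in replicate 2. Of 8 neuronal genes 3 were tested, Mir137, Mir128-1 and Mir128-2, and all 3 were lower, with a summed level of 359 and 234 CPM for the 8. Mir128-1 and Mir128-2 share a run of 23 bases with each other, so their counts hold only reads unique to 1 locus. The neuronal gene Mir9-3, below the filter, went the other way, with 3 and 63 counts (log2 ratio 5.00, exact 95% interval 3.39 to 7.32), and with no filter it passed. Mir124a-1, Mir124a-2 and Mir124a-3 had 0 counts, but they share a run of 32 bases, so reads of that run were assigned to no gene and the 0 sets no limit on their level. All 5 leukocyte genes were higher, as Mir34c was, with a summed level of 5998 and 8349 CPM. Of 10 genes of epithelium and multiciliated cells 5 were tested, of which Mir203 was higher, Mir200b was lower and 3 did not pass. Their summed level was 209 and 266 CPM, and without Mir203 (70.5 and 184.5 CPM) the other 9 summed to 138 and 81.3 CPM. Of the defining Mir449 genes, Mir449a had 21.5 CPM in each library and Mir449b and Mir449c were at 0. Mir200a, below the filter, had 37 and 6 counts. Muscle genes outside that list, chosen after their values were seen, were mixed. Mir1a-2 (304 and 194 counts, log2 ratio -0.04) and Mir133b (31 and 21 counts, 0.05) did not pass the test. Mir1a is encoded by several loci, so the counts of Mir1a-2 hold only unique reads. Mir206 (68 and 11 counts, log2 ratio -2.02) was lower in replicate 2. The part of these cell types in the differences of Mir34a and Mir34c was not tested. In whole tissue, fewer cells of a type and less RNA per cell cannot be told apart.

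Other microRNAs reported to respond to p53 did not share 1 direction. The list held 14 genes, of which Mir605 matched no symbol of release M21 and was not analysed here. Of the 13 measured, Mir141, with 9 and 8 counts, was below the filter, and of the 12 tested 8 were lower in replicate 2, 3 were higher and 1 did not pass. Over all 309 genes tested, 28.2% were lower and 35.3% higher. The median log2 ratio of the 12 was -1.15, beside 0.01 over all genes tested. Several of the 12 are close neighbours: Mir192 with Mir194-2, Mir215 with Mir194-1, Mir15a with Mir16-1 and Mir143 with Mir145a. The counts and the median therefore weight some loci more than once.

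Genes whose transcription p53 is reported to raise were mostly lower. Mir192 (log2 ratio -2.60), Mir215 (-4.02), Mir194-1 (-0.89) and Mir194-2 (-1.41) come from a pair of clusters known from gut and kidney epithelium and had between 85 and 421 counts in replicate 1 and between 17 and 30 in replicate 2. Mir22, a microRNA of heart muscle growth, had 54550 and 9084 CPM (log2 ratio -2.51), and Mir149, in an intron of Gpc1, stood at 23989 and 15977 CPM (-0.51). Mir107, in an intron of the pantothenate kinase gene Pank1, was higher, with 384 and 697 CPM (0.93). Mir200c, of the epithelial Mir200 family, had 169 and 108 counts and did not pass the test (log2 ratio -0.03, exact 95% interval -0.40 to 0.32).

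Mir143, Mir145a and Mir16-1, whose maturation p53 is reported to aid, split by locus. Mir143 (31249 and 50747 CPM, log2 ratio 0.77) and Mir145a (1662 and 5587 CPM, 1.82), neighbours known from smooth muscle, were higher in replicate 2. Mir16-1 (1062 and 360 CPM, -1.49) and its neighbour within Dleu2, Mir15a (1903 and 418 CPM, -2.11), were lower. Mir16-1, Mir107, Mir194-1 and Mir194-2 share a run of at least 18 bases with another precursor, so their counts hold only reads unique to 1 locus. By mean level Mir143, Mir22 and Mir149 stood above Mir34a, and the remaining 10 of the 13 below it, although in replicate 2 Mir145a (5587 CPM) stood above Mir34a (3681 CPM).

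Among 5 microRNAs reported to repress p53, 3 were lower in replicate 2 and 2 did not pass, a share of passes near the 63.4% of all genes tested, against 28.2% of all tested that were lower. The lower genes were Mir25 (434 and 162 CPM, log2 ratio -1.35), Mir125b-1 (439 and 253 CPM, -0.72) and Mir30d (17257 and 14296 CPM, -0.20). Mir125b-2 (184 and 164 CPM) had a log2 ratio of -0.10 (exact 95% interval -0.27 to 0.07) and Mir504 (13.4 and 14.2 CPM) one of 0.16 (-0.46 to 0.77). With DESeq2 size factors 4 were lower instead of 3. The median log2 ratio of the 5 was -0.20. Mir125b-1 and Mir125b-2 share sequence with each other, so their counts too hold only reads unique to 1 locus.

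**Figure D3:**
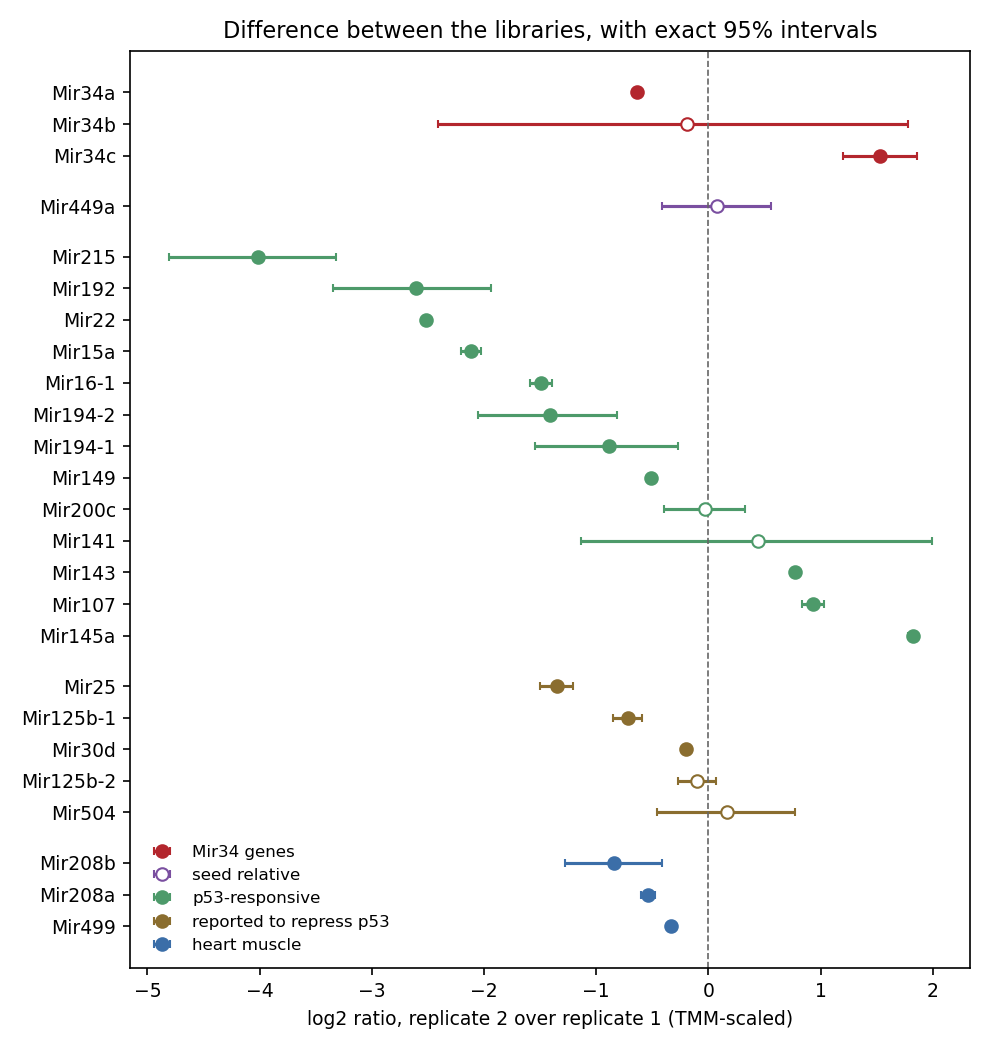
Log2 ratio of replicate 2 over replicate 1 (x axis, TMM-scaled) with exact 95% counting intervals for each named gene, grouped by list. Filled points passed the test and open points did not pass or were not tested; Mir34a (-0.64) and Mir34c (1.52) lie on opposite sides of 0, and the p53-responsive genes range from -4.02 to 1.82.

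**Figure D4:**
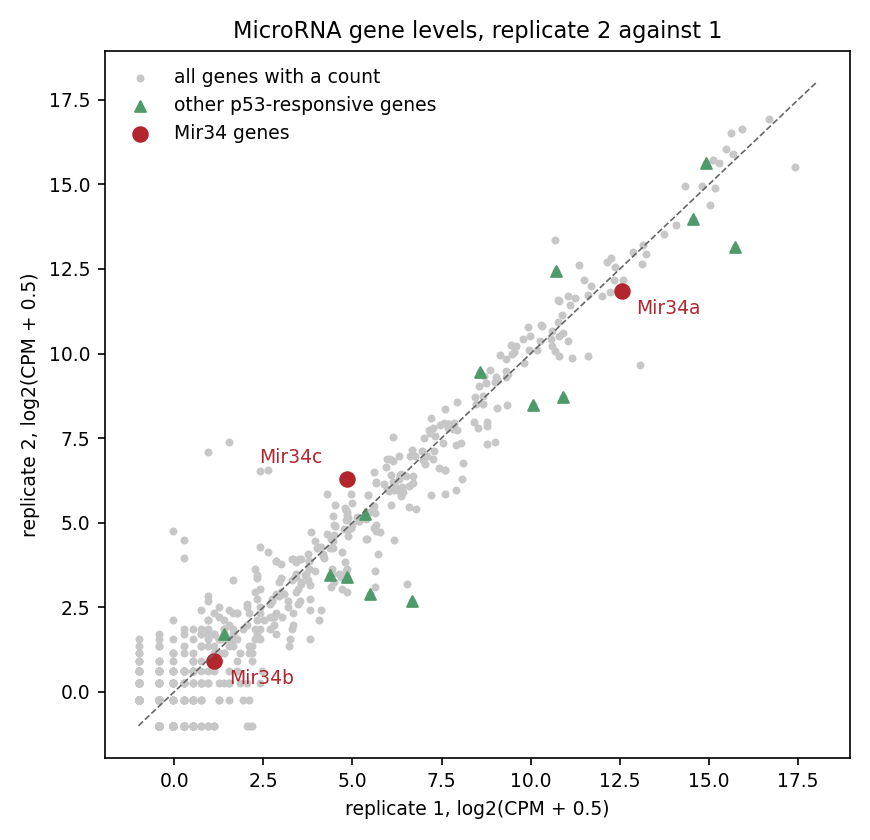
Level of every gene with a count, as log2(CPM + 0.5), in replicate 1 (x axis) and replicate 2 (y axis), with the Mir34 genes as large points, the other p53-responsive genes as triangles and equality as a dashed line. Mir34a lies in the upper part of the range just below the line, Mir34c lies above the line in the middle, and Mir34b lies near the detection limit.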

How the data were processed

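The authors deposited 1 table of raw read counts per microRNA gene for each of the 2 heart libraries, with columns for reads regardless of strand, on the gene's strand and on the opposite strand. Build mm10 and annotation release M21 are named per the file headers of the deposited readme, and the aligner is not given in the sources used here. Replicate 1 had 13233055 reads, of which 4186560 were assigned to genes on their strand, and replicate 2 had 8930289 and 2877511. Reads that were unmapped, at several loci (42.4% and 43.2%), outside genes or ambiguous stayed out. The libraries were not duplicates (chi-square 830 per degree of freedom over genes).

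CPM, exact Clopper-Pearson intervals and binomial tests (scipy 1.17.1, adjusted p threshold 0.05) were computed from the gene-strand column, after edgeR 4.0.16 filterByExpr (minimum count 10) and TMM. DESeq2 1.42.0 gave alternative size factors. Intervals and floors reflect counting error alone, because the tables count reads and the labels name no molecular identifiers, so copies of 1 molecule may be counted apart. The binomial step was run on simulated counts with known changes that vary by counting error alone. This checks the calculation and not its use on libraries that differ by more than counting error. Alternatives covered strand, denominator, scaling, filter, pseudocount and each replicate left out. Named genes were the members, the Mir449 genes, the p53 and marker lists and the 3 genes nearest in level to each member with at least 10 counts in both libraries. Rank neighbours were added after their values were seen. The members and lists were chosen with earlier results of these data known.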

Additional observations from a re-analysis of the deposited data

How the results depend on the processing

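Of 56 alternative values, 12 leave out a replicate from a level or share and lie within 1 SD of the mean by construction with 2 libraries, so they say nothing about stability. Of the other 44, 39 stayed on their side of the threshold or within the limit, and 5 moved, all of them mean levels. The limit was 1 SD for levels and shares and 1.5-fold for counts and ranks. The 39 overstate stability, because some could hardly move. Without the filter the log2 ratios of Mir34a, Mir34b and Mir34c were identical to the main values. Regardless of strand, the shares rest on the same counts, apart from 8 counts of Mir34b instead of 7 in replicate 1. The log2 ratio of Mir34b ran from -0.44 to -0.19, well inside its counting interval of -2.41 to 1.78. With all reads of the tables as denominator the means were 1544 per 1000000 reads for Mir34a, 16.9 for Mir34c and 0.488 for Mir34b, because reads assigned to no gene then enter the total. With reads counted regardless of strand they were 6626 CPM for Mir34a and 2.24 CPM for Mir34b, over a smaller total. The log2 ratio ran from -0.79 to -0.64 for Mir34a and from 1.38 to 1.52 for Mir34c over scaling, filter and strand. The p53-responsive list kept its counts of 8 lower and 3 higher in each of these settings. Without replicate 1 the mean of Mir34c was 77.2 CPM, and without replicate 2 it was 28.2 CPM, with 2.05% and 0.466% of the family's counts. No paired analysis was possible because the design holds 1 group. Depth limits Mir34b, with 7 and 4 counts.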
